A study of Pinus pinaster with 24 samples.

Results

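The comparison concerns the developing cortex of the root tip of maritime pine (Pinus pinaster), in seedlings given ammonium or water. Its members are the 6 developing cortex libraries among the 24 of the series, chosen by the tissue and treatment in their labels: 3 from ammonium-treated and 3 from water-treated seedlings. The other 18 libraries cover the root cap, the meristem and the developing vessels under the same treatments, in 6 libraries each. Seedlings about 1 month old, of the Segura-Alcaraz provenance, spent 3 days on a nutrient solution without nitrogen. They were then irrigated with 80 mL of 3 mM NH4Cl (ammonium) or with 80 mL of water, and root tips were frozen 24 h later, so the water group received no nitrogen in these days. Regions were cut by laser from sections of 30 µm, and the labels describe them as only approximately matching the named tissues. RNA was turned into cDNA and amplified with a low-input kit, and each treatment has libraries from experiments numbered 1, 3 and 4. The labels do not give the number of seedlings behind a library or say whether experiments were separate plantings, so a p-value here reflects how far these libraries scatter, whether from plants or from handling.

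Ammonium enters roots through membrane transporters of the AMT family. It is built into glutamine by glutamine synthetase and passed on to glutamate by glutamate synthase, which keeps free ammonium low in the cells. The cortex is the ground tissue between the epidermis and the vascular cylinder, and in young roots it carries much of the traffic of ions towards the vessels. The root cap covers the tip, shields the meristem and releases mucilage and border cells. The comparison asks which transcripts of the developing cortex differ 1 day after ammonium. The 47118 transcripts carry identifiers only, and a gene name is attached to 0 of them, so the levels of AMT transporters, glutamine synthetase and cortex marker genes could not be read, and transcripts are described by level, neighbourhood in identifier order and distribution over the regions. No sequence is shown for the same reason.

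The 6 cortex libraries held about 72752000 to 79132000 recovered reads. A value is a read number divided by a scaled library size, and 3 reads correspond to a value of 0.0415 to 0.0493 in these libraries. Such a floor covers counting error only: the cDNA was amplified and carries no molecular tags, so reads are not separate molecules. The ammonium libraries of experiments 1, 3 and 4 listed 563, 1425 and 919 transcripts at 0, and the water libraries 664, 448 and 329. Values were analysed as log2(value + 1), so all log2 differences below are ammonium minus water on that scale and understate the change of low transcripts.

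The ammonium library of experiment 3 stood apart from the other 5. Its correlation with the other ammonium libraries across transcripts was 0.845 and 0.847, whereas the ammonium libraries of experiments 1 and 4 correlated at 0.957 and the water libraries at 0.934 to 0.959. The first principal component (a weighted sum of transcripts that takes up the most variance), with 48.0% of the variance, separated this library from the rest. The second, with 24.9%, separated the treatments: the ammonium libraries lay at 87.8, 27.0 and 49.0, and the water libraries at -47.1, -52.5 and -64.2. The ammonium library of experiment 1 was more like the mean water profile of the root cap (r = 0.942 across transcripts) than that of the cortex (0.928). The ammonium libraries of experiments 3 and 4 were more like the cortex (0.887 and 0.947) than the root cap (0.795 and 0.930), as were the water libraries, at 0.948 to 0.967 against 0.876 to 0.900, each set against the mean of the other water cortex libraries. Genes are not independent replicates, and these correlations describe the libraries only.

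**Figure D1:**
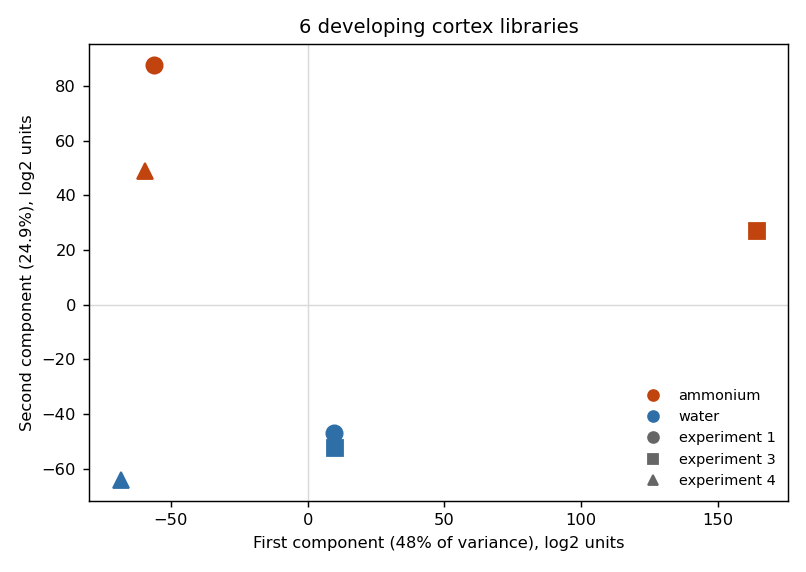
Scores of the 6 developing cortex libraries on the first and second principal components of log2(value + 1), in log2 units, with colours for the treatment and symbols for the experiment. The ammonium library of experiment 3 lies alone at the right, at 164 on the first component, and the 3 ammonium libraries lie above the 3 water libraries on the second.

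Most transcripts of the cortex differed little between treatments. The median log2 difference over the 46960 transcripts tested was -0.03, and the central 95% lay between -0.91 and 1.27. A difference of at least 1 upwards was seen in 1904 transcripts and of at least 1 downwards in 915, so large differences leaned towards higher levels after ammonium. Without regard to size the lean was the other way. In 2993 transcripts (6.37%) all 3 ammonium libraries lay above all 3 water libraries, and in 4341 (9.24%) all 3 lay below. These counts were not tested. The smallest possible 2-sided exact permutation p for 3 against 3 libraries is 0.1, so groups also separate without an effect in many transcripts. The reverse lean was strongest among weak transcripts: below a mean value of 1, 12.8% lay wholly below and 3.52% wholly above, against 5.61% and 8.65% at values of 100 and above.

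By the limma test, 90 transcripts (0.192% of those tested) rose after ammonium and 36 (0.0767%) fell, 126 in all (0.268%, Benjamini-Hochberg adjusted p under 0.05). The 90 rises had a median log2 difference of 2.04 (range 0.91 to 4.26), and 48 of them exceeded 2. The 36 falls were smaller, with a median of -1.28 (range -2.39 to -0.68), and 2 of them exceeded 2 in size. In all 126 the ammonium and water libraries did not overlap, which also fixes the sign within each experiment. The test shares its estimate of the spread over all 24 libraries. With the 6 cortex libraries alone it called 0 (3998 at an unadjusted p under 0.05), edgeR's quasi-likelihood method gave 0 calls from the recovered read numbers (unadjusted p under 0.05 in 5304), and DESeq2 called 1030 (467 higher and 563 lower). With the experiment number as a block, limma called 192 over the 24 libraries (119 higher and 73 lower). Blocked within tissue it called 12 (12 higher and 0 lower, 5 of them among the 126), and 0 in the 6 cortex libraries. The count changed with each library left out, a step that also leaves 2 libraries in that group. The part of the lost replicate in these changes was not tested. The count was 28 when the ammonium library of experiment 1 was left out, 78 for experiment 3 and 457 for experiment 4. Leaving out the water library gave 1 for experiment 1, 32 for experiment 3 and 19 for experiment 4.

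The transcripts that rose were mostly low in the water cortex. Their mean value was 11.1 in the ammonium cortex at the median and 1.22 in the water cortex. Summed over the 90, levels reached 1962, 3006 and 1053 in the ammonium libraries of experiments 1, 3 and 4, against 251, 288 and 215 in the water libraries. These sums made up 0.0940% to 0.251% of the ammonium libraries and 0.0208% to 0.0268% of the water libraries. The ammonium library of experiment 3 held the highest ammonium value in 52 of the 90, that of experiment 1 in 32 and that of experiment 4 in 6. The median difference of the 90 was 2.16 in experiment 1, 2.35 in experiment 3 and 1.49 in experiment 4; the sign in each follows from the choice of the transcripts, and the size was smallest in experiment 4.

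The transcripts that fell had moderate levels in the water cortex. Their mean value was 1.93 in the ammonium cortex at the median and 6.28 in the water cortex, against 3.95 and 3.72 for all tested transcripts, and none exceeded 15.1 in the water cortex. Summed over the 36, levels reached 79.2, 65.1 and 81.7 with ammonium in experiments 1, 3 and 4, against 231, 225 and 248 with water. The 3 experiments gave nearly the same median difference, -1.06, -1.26 and -1.22. The ammonium library of experiment 3 held the lowest value in 23 of the 36.

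Calls among abundant transcripts were few, as they were over all tested transcripts (0.192% rose and 0.0767% fell). Below a mean value of 1, 0 of 6566 were called. At mean values of 100 and above, 2 of 1978 transcripts rose and 0 fell, although 6.07% of them were higher by at least 1. The spread among ammonium libraries was widest in this class: the SD of log2 levels, as a root mean square over transcripts, was 0.90 among ammonium and 0.50 among water libraries, whose spread was widest at values of 20 to 100 (0.54). Over all transcripts it was 0.67 and 0.44, and the SD was larger in the ammonium group for 69.0% of transcripts. Of the 348 transcripts higher by at least 2, 207 had groups that did not overlap and 48 passed the test. Of the 103 lower by at least 2, 78 did not overlap and 2 passed. The 100 most abundant transcripts of the ammonium cortex and the 100 of the water cortex had 78 in common, and 0 of either set passed the test (lowest limma adjusted p = 0.269). Over all tested transcripts 0.268% passed, a share under 1 in 100, so the 0 does not set these transcripts apart. The ammonium set of 100 held 14 transcripts that were higher by at least 1, and the water set held 1.

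**Figure D2:**
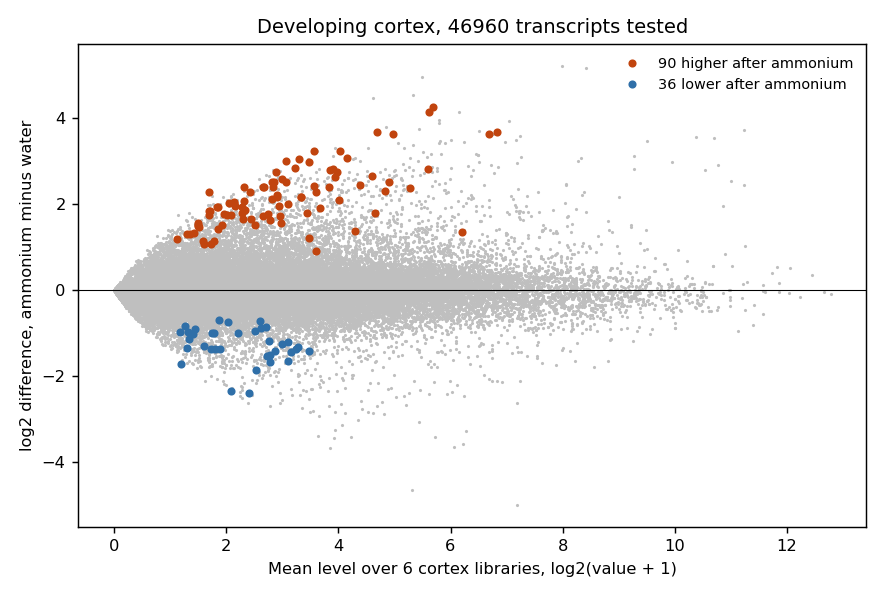
Log2 difference, ammonium minus water, against the mean level over the 6 cortex libraries as log2(value + 1), for 46960 transcripts (grey), with the 90 called higher (red) and the 36 called lower (blue). Rises reach further from 0 than falls and extend to higher levels, and the points farthest from 0, at 5.21 and -4.99, did not pass the test.

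The rises with the widest gap between groups were pp_227561 and pp_219416. Transcript pp_227561 had values of 37.8, 56.7 and 45.1 in the ammonium libraries of experiments 1, 3 and 4, against 1.94, 4.30 and 2.19 in the water libraries. Transcript pp_219416 had 43.6, 67.5 and 59.6 with ammonium, against 2.71, 5.73 and 2.85 with water. In both, the lowest ammonium library stood far above the highest water library, and the library of experiment 3 was the highest of its group. The log2 difference was 3.67 (SE 0.53, limma adjusted p = 0.0150) for pp_227561 and 3.64 (SE 0.59, limma adjusted p = 0.0166) for pp_219416, with differences of 3.72, 3.45 and 3.85 and of 3.59, 3.35 and 3.97 in experiments 1, 3 and 4.

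Both transcripts followed nearly the same course, with a correlation of 0.997 over the 24 libraries, although their identifiers lie far apart. At r of 0.95 or more, 10 transcripts followed pp_227561 and 7 followed pp_219416. Whether pp_227561 and pp_219416 are alike in sequence could not be read. How the authors' counting divided reads between similar sequences is not known either, so the values of both are uncertain as those of separate genes. The transcript next to pp_219416 also rose, from the same test, with a log2 difference of 3.24 (limma adjusted p = 0.0150) and means of 28.5 with ammonium and 2.16 with water. The pair of tested transcripts that precede pp_227561 did not pass, with log2 differences of 1.38 (limma adjusted p = 0.0670) and 0.24 (limma adjusted p = 0.908). The call of pp_227561 held in 15 of 20 alternatives and that of pp_219416 in 13 of 20. Alternatives that ended both calls included pseudocount 0.1 (limma adjusted p = 0.120 and 0.147), the 6 libraries alone (0.0898 for each), edgeR (0.191 and 0.219) and the fit without the water library of experiment 1 (0.0518 and 0.0608). Adjusted p ran from 0.000161 to 0.305 over the alternatives of pp_227561 and from 0.000329 to 0.305 over those of pp_219416, whose call also ended without the water library of experiment 4 (0.0684).

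The falls with the widest gap were pp_143745 and pp_58604. Transcript pp_143745 had values of 0.423, 0 and 0.835 in the ammonium libraries of experiments 1, 3 and 4, against 5.26, 6.24 and 6.59 in the water libraries. Transcript pp_58604 had 0.130, 0.0329 and 0.0566 with ammonium, against 2.65, 2.59 and 2.31 with water. The ammonium values of pp_58604 stand for 8, 2 and 4 reads and lie near the floor of 3 reads, and the water values stand for 185, 186 and 167 reads. The water libraries agreed closely in both transcripts, and no ammonium library came near them. The log2 differences were -2.35 (SE 0.44, limma adjusted p = 0.0295) for pp_143745 and -1.71 (SE 0.29, limma adjusted p = 0.0215) for pp_58604.

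Transcripts beside the 2 falls had smaller differences. The 3 tested transcripts that precede pp_143745 without a break in identifier order had log2 differences of -0.32 to -0.00, with 0 past the test and overlapping groups in all 3. The 5 that follow pp_58604 had differences of -0.42 to 0.17, with 0 past the test, and 4 of the 5 had overlapping groups. Over all tested transcripts 0.268% passed, 6.37% lay wholly higher and 9.24% wholly lower, so these counts do not set the neighbours apart. The call of pp_143745 held in 9 of 20 alternatives (adjusted p of 0.00508 to 0.462 over limma, edgeR and DESeq2), and among the fits without a library it held only without the ammonium library of experiment 4 (0.0158, against 0.0845 to 0.128 in the other 5). The call of pp_58604 held in 10 of 19 (0.00129 to 0.305 over the same tools) and ended without the ammonium library of experiment 1 (0.0670) or the water libraries of experiments 1, 3 and 4 (0.0722, 0.0659 and 0.0661).

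**Figure D3:**
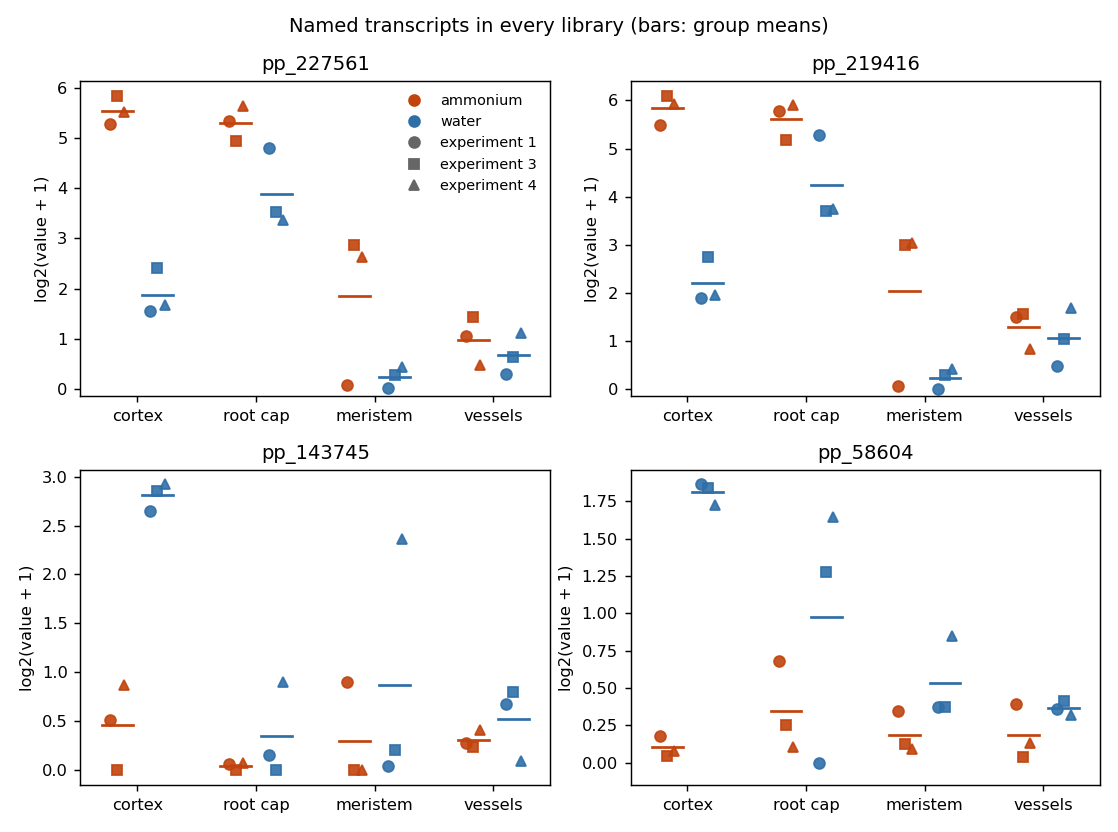
Values of the 4 named transcripts as log2(value + 1) in all 24 libraries, by region, with ammonium (red) left of water (blue), symbols for the experiment and bars for group means. In the cortex the groups are widely apart in each panel. In the root cap pp_227561 and pp_219416 are high under both treatments, and pp_143745 is low outside the water cortex apart from single libraries.

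Neighbouring identifiers tended to move together in the cortex. Over 31815 pairs of consecutive identifiers the log2 differences correlated at r = 0.649, and 76.1% of pairs had the same sign. In 893 pairs both members lay wholly higher after ammonium and in 1405 both lay wholly lower, against 90 pairs that were apart in opposite directions. Taken singly, 6.37% of all tested transcripts lay wholly higher and 9.24% wholly lower. The 90 rises fell into 60 runs of consecutive tested identifiers and the 36 falls into 29. Of these runs, 20 of the 60 and 7 of the 29 held 2 or more calls, and 25 pairs of consecutive identifiers were both called. Among the 323 tested transcripts that share a run with a rise but did not pass, 235 had a higher mean after ammonium, with a median log2 difference of 0.48. Of 114 that share a run with a fall, 81 had a lower mean, with a median of -0.29. Over all tested transcripts 46.9% had a higher mean after ammonium and 53.1% a lower one. The run with the most rises held 5 among 15 transcripts, and 11 of the 15 had a higher mean.

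Few transcripts went between absence and presence. In 17 transcripts each ammonium library was above 3 reads and each water library at or below 3 reads, with 4 of them at 0 in all water libraries. The opposite was seen in 124, which were above 3 reads in each water library and at or below 3 in each ammonium library, 44 of them at 0 in all ammonium libraries. The 124 were all very weak, with a highest mean of 0.977 in the water cortex, whereas 8 of the 17 reached a mean of 1 in the ammonium cortex. Without the ammonium library of experiment 3, the one with the most transcripts at 0, the numbers were 48 and 255, and without that of experiment 1 they were 20 and 266. None of the 17 or the 124 passed the limma test, against 0.268% of all tested transcripts, so the 0 does not set them apart. The log2(value + 1) scale of that test compresses such levels.

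The called transcripts leaned the same way in the other regions, whose libraries took no part in choosing them except through the shared estimate of the spread. Of the 90 cortex rises, 73 had a higher mean after ammonium in the root cap, 79 in the meristem and 69 in the vessels, against 48.7%, 51.5% and 48.0% of all tested transcripts. The median differences were smaller there: 0.52, 0.25 and 0.04, against 2.04 in the cortex. The 3 ammonium libraries lay above the 3 water libraries in 29 of the 90 in the root cap (32.2%, against 6.03% of all tested), 15 in the meristem (16.7% against 4.38%) and 12 in the vessels (13.3% against 4.44%). Of the 36 falls, 32 had a lower mean in the root cap, 29 in the meristem and 26 in the vessels, with medians of -0.36, -0.23 and -0.18. The shares of all tested transcripts with a lower mean were 51.3%, 48.4% and 51.7%. The 3 ammonium libraries lay below the 3 water libraries in 11, 7 and 6 of the 36, against 6.65%, 6.01% and 4.25% of all tested. A higher mean in all 4 regions was shared by 52 of the 90 rises (57.8%, against 15.4% of all tested), and a lower mean in all 4 by 22 of the 36 falls (61.1% against 18.2%). These counts describe the calls, and libraries of different regions that share an experiment number may not be independent.

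The named transcripts differed in level between regions. Transcript pp_227561 averaged 39.5 ± 9.57 in the ammonium root cap and 15.6 ± 9.92 in the water root cap (SD, n = 3 each), and its values of 39.4, 30.0 and 49.1 did not overlap those of 27.0, 10.5 and 9.27. The difference of 1.42 did not pass the test there (limma adjusted p = 1). In the meristem it had 0.0495, 6.28 and 5.20 with ammonium against 0.0139, 0.206 and 0.356 with water. Its ammonium level in the meristem therefore came from the libraries of experiments 3 and 4 alone. Transcript pp_143745 averaged between 0.0333 and 1.44 in the other regions under either treatment, well below its mean of 6.03 in the water cortex.

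Whether the cortex responded differently from the other regions was tested as the cortex difference minus the mean difference of the root cap, meristem and vessels. The limma test of that contrast called 0 of 46960 transcripts (0%). Its unadjusted p was under 0.05 in 2161, and 0.305 was the lowest adjusted p. For pp_227561 the contrast was 2.56 (SE 0.62, limma adjusted p = 0.451) and for pp_143745 it was -1.98 (SE 0.51, limma adjusted p = 0.569). Leaving out a cortex ammonium library gave 71 calls for experiment 4, 2 for experiment 3 and 0 for experiment 1, and leaving out a cortex water library gave 0 each time. No call of the cortex is shown to be particular to it.

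**Figure D4:**
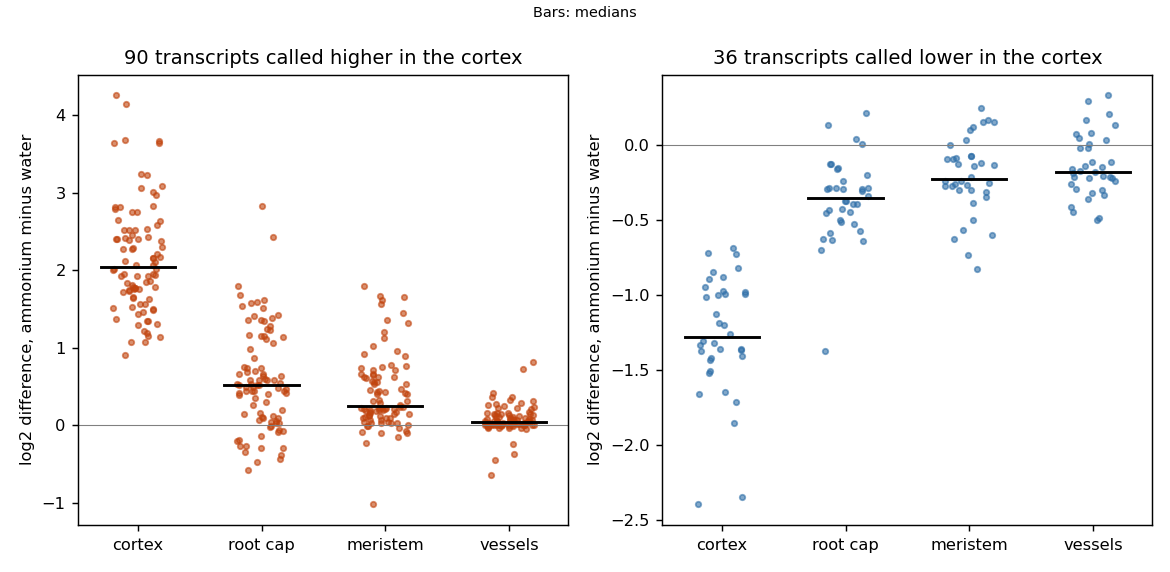
Log2 differences, ammonium minus water, in each region for the 90 transcripts called higher (left) and the 36 called lower (right) in the cortex, with bars for medians. The cortex values were used to choose the transcripts. In the other regions the medians of the rises are 0.52, 0.25 and 0.04 and those of the falls -0.36, -0.23 and -0.18.

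Transcripts higher in the root cap than in the meristem and vessels stood higher in the cortex after ammonium. To measure this without cortex libraries in the choice, lists of 200 transcripts were made from the water libraries of the root cap, meristem and vessels alone, ranked by the smaller of the differences from the other 2 regions. The root cap list summed to 52169, 47433 and 18645 in the cortex ammonium libraries of experiments 1, 3 and 4, against 12496, 15458 and 6780.4 in the cortex water libraries. The summed levels did not overlap between groups, and within each experiment the ammonium library was the higher. Relative to the mean sum in the water root cap, these are 72.8%, 66.2% and 26.0% with ammonium and 17.4%, 21.6% and 9.46% with water. The transcripts of this list were thus well represented in the cortex libraries of both groups. They were ranked against the meristem and vessels only, so the list can hold transcripts that the cortex shares with the root cap. Of the 200, 196 had a higher mean after ammonium, with a median log2 difference of 1.51 against -0.03 over all transcripts tested, and 7 were among the 90 rises (3.5%, against 0.192% of all tested). The mean log2 level of the list was 5.84 ± 0.93 with ammonium and 4.21 ± 0.70 with water (SD, n = 3 each), a difference of 1.63 (2-sided exact permutation p = 0.2, with 0.1 the smallest possible). On this scale the groups overlapped, since the ammonium library of experiment 4 had 4.79 and the water library of experiment 3 had 4.86. In the root cap itself the list did not stand higher: it summed to 31054 to 96414 with ammonium and 46066 to 104624 with water. It summed to 116 to 11732 with ammonium and 310 to 977 with water in the meristem, and to 89.4 to 192 with ammonium and 51.9 to 104 with water in the vessels. Groups overlapped in these 3 regions, with ratios of means of 0.874 in the root cap, 7.71 in the meristem and 1.68 in the vessels, against 3.40 in the cortex. In a microdissected region, more cells of a type and more RNA per cell cannot be told apart.

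Transcripts higher in the vessels than in the root cap and meristem had lower levels in the ammonium cortex. The vessel list summed to 656, 1289.55 and 729.8 in the ammonium libraries, against 1948, 2962 and 2651 in the water libraries, with no overlap. Its mean log2 level was 0.91 ± 0.20 with ammonium and 1.98 ± 0.51 with water (SD, n = 3 each), a difference of -1.07 (2-sided exact permutation p = 0.1, the smallest possible). Of its 200 members, 192 had a lower mean, 87 lay wholly lower (43.5%, against 9.24% of all tested) and 0 passed the limma test in either direction (0.0767% of all tested fell). The list also had lower sums in other regions, where groups overlapped: 59.8 to 130.2 with ammonium and 129.6 to 355 with water in the root cap, and 106 to 995 with ammonium and 316 to 3604 with water in the meristem. The ratio of means, ammonium over water, was 0.354 in the cortex, 0.363 in the root cap and 0.426 in the meristem, and differences between regions were not tested for the lists. The meristem list, whose members differ less between regions, gave 3874, 502 and 2395 with ammonium against 2025, 2609 and 3632 with water. The ammonium library of experiment 3 was the lowest of the 6 in meristem transcripts and that of experiment 1 the highest. Its mean log2 level was 1.93 ± 0.93 with ammonium and 2.16 ± 0.47 with water (SD, n = 3 each), a difference of -0.22 (2-sided exact permutation p = 0.9).

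The same order ran through all tested transcripts when they were sorted by the region, other than the cortex, with the highest level under water. Classes with a margin of 4 or more share members with the lists, whose smallest margin was 4.94 for the root cap and 3.85 for the vessels. All 200 members of the root cap list therefore lie in its class of 4 or more. The root cap and vessel classes with margins under 2 hold no members of these lists. Among 397 transcripts that led in the root cap by 4 or more log2 units, the median cortex difference was 1.36 and 96.7% had a higher mean after ammonium. It was 0.90 at a margin of 2 to 4, 0.47 at 1 to 2 and 0.16 under 1. Among transcripts highest in the vessels it was -0.97 at a margin of at least 4 (169 transcripts), -0.36 at 2 to 4, -0.19 at 1 to 2 and -0.11 under 1. Those highest in the meristem by under 1 had a median of -0.06. For root cap transcripts with a margin of at least 4 the medians in experiments 1, 3 and 4 were 1.77, 1.33 and 0.96. For vessel transcripts with that margin they were -0.27, -1.09 and -1.61, so experiment 1 had the greatest difference in the root cap class and the smallest in the vessel class. These differences subtract the same-numbered water library, so either library can set their size. In experiments 1, 3 and 4 the mean log2 level of the vessel list was 1.40, 2.16 and 2.37 with water, and 1.00, 1.04 and 0.67 with ammonium. Transcripts of the meristem with a margin of 1 to 2 went in opposite directions, with medians of 0.92 in experiment 1, -0.90 in experiment 3 and -0.25 in experiment 4.

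**Figure D5:**
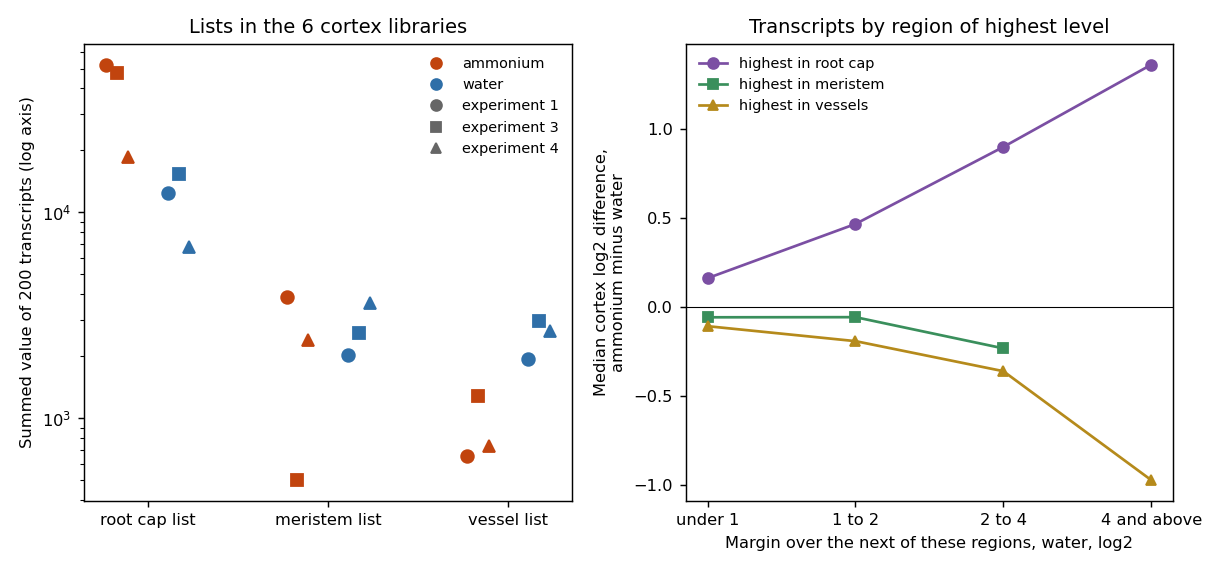
Left, summed value of the 200 transcripts of each list in the 6 cortex libraries (log axis), ammonium (red) left of water (blue), symbols for the experiment. Right, median cortex log2 difference of transcripts grouped by the non-cortex region with the highest water level and by its margin over the next. The root cap list is higher and the vessel list lower in each ammonium library, and the medians of the root cap and vessel classes move away from 0 as the margin grows.

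These classes overlapped the cortex calls. Of the 90 rises, 86 were highest in the root cap among these 3 regions under water, 44 of them by at least 2, against 29.5% and 3.21% of all tested transcripts. Of the 36 falls, 24 were highest in the vessels (34.9% of all tested), 9 in the meristem (35.6%) and 3 in the root cap (29.5%). A margin of at least 2 in the vessels was held by 0 of the 36, against 3.06% of all tested, so the 0 does not set them apart. With the cortex included in the ranking, 18 of the 36 were highest in the vessels, 11 in the cortex, 7 in the meristem and 0 in the root cap. The cortex led in 25.2% of all tested transcripts, the vessels in 25.3%, the meristem in 33.2% and the root cap in 16.3%. Of the 90 rises, 79 were then highest in the root cap and 8 in the cortex. Levels in the ammonium cortex could exceed those of the root cap. The mean in the ammonium cortex lay above the mean in the water root cap for 70 of the 90 rises (48.8% of all tested). It lay above the mean in the ammonium root cap for 53, which was counted for the calls alone. In 38 of the 90 all 3 cortex ammonium libraries lay above all 3 water root cap libraries, against 11.7% of all tested. High ammonium values in the cortex favoured selection, so these counts are a description. The part of root cap, vessel and meristem transcripts in the other differences of the cortex was not tested.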

How the data were processed

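The submitters' processing notes name bcl2fastq and BWA. No source used here gives versions, counter, reference, scaling or filtering. The authors deposited a scaled signal for each transcript, which the values show to be read counts over a library factor: 100% of values were whole multiples of 1 read within 0.01 reads. The planned test assumed CPM, and the same log-scale test was kept for this signal. Depth was about 67135000 to 88269000 recovered reads over the 24 libraries.

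The filter required a value of 1 or more in 3 or more libraries (46960 transcripts, with 158 removed). The main test was limma 3.58.1 (R 4.3.3) with empirical Bayes and trend on log2(value + 1), with 8 group means over 24 libraries and a Benjamini-Hochberg adjusted p under 0.05. Alternatives used edgeR 4.0.16 and DESeq2 1.42.0 on recovered reads, other pseudocounts (0.1 and 4), filters, scalings, library weights, replicate blocks and fits without 1 library. Region lists held 200 transcripts with a mean of at least 5 in their region under water. Named transcripts were the 2 rises and 2 falls among the calls with the widest gap between groups, at most 1 from a run of consecutive identifiers. Procedures were tested on simulated data, and scipy 1.17.1 gave exact permutation tests. With no gene names, the planned lists of nitrogen genes and tissue markers could not be applied. The members, lists and rules were chosen with earlier results of these data known.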

Additional observations from a re-analysis of the deposited data

How the results depend on the processing

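The count of 126 called transcripts moved by over 1.5 times in 16 of 20 alternatives: it was 49 with pseudocount 0.1, 79 under a stricter filter (5 or more in 3 or more libraries), 0 in the 6 cortex libraries alone, 366 after dropping experiments 3 and 4 of the ammonium meristem, 0 in edgeR, 1030 in DESeq2 and 4754 with library weights (1963 higher and 2791 lower). Without 1 cortex library it ran from 1 to 457. It was 140 with pseudocount 4, 134 with median-of-ratios scaling, 152 with quantile normalization and 126 with no filter. DESeq2 and library weights gave more falls than rises, and the cause was not tested. All 126 calls kept their sign in the fits that tested them, and the stricter filter tested 89 of them. Without a block, 0 of the 4 named transcripts passed with pseudocount 0.1, in the 6 libraries alone, in edgeR or without the water library of experiment 1.

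Deviations of same-numbered cortex libraries from their group means correlated at -0.22, 0.31 and 0.35 for experiments 1, 3 and 4. The ammonium library of experiment 1 was most like the water library of experiment 4 (0.36), and those of experiments 3 and 4 were most like the same-numbered water library. With 3 libraries a group these correlations constrain one another, so they cannot decide whether the numbers mark a shared batch. With the experiment as a replicate block the count was 192 over 24 libraries (119 higher and 73 lower), 12 with the block within tissue (12 higher and 0 lower, with 5 of them among the 126) and 0 in the 6 cortex libraries (4007 at an unadjusted p under 0.05, limma). Of the 4 named transcripts 4, 1 and 0 passed in these blocked fits, and pp_219416 missed within tissue at a limma adjusted p of 0.0525. The block cannot move the list differences of 1.63 (root cap), -0.22 (meristem) and -1.07 (vessels), and their exact permutation p with it was 0.25, 0.75 and 0.25, where 3 pairs allow no lower than 0.25.

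The contrast of the cortex with the other regions called 0 in each alternative except library weights (20) and 2 of the 6 fits without a cortex library (range 0 to 71). Transcripts with groups apart numbered 7334 and 4663 under the stricter filter, which tested 28719. Without the ammonium library of experiment 3, an alternative chosen after seeing the data, they numbered 17524. A group of 2 libraries separates from 3 more easily, and this cannot be told apart from the part of that library. Without 1 library the root cap list difference ran from 1.26 to 2.16, the vessel list from -1.36 to -0.88 and the meristem list from -0.63 to 0.28, so the direction of the meristem list rested on single libraries.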
